A study of Mus musculus with 281 samples.

Results

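The cells compared here are 31 single cells of mouse bone marrow, 21 labelled proneu and 10 labelled Ly6C+GMP, out of 281 cells in the series. They were chosen by label and title alone: every cell of either label whose title is RMB4591 or carries a higher RMB number. The series profiled single progenitors of the granulocyte and monocyte lineages of C57BL/6 mice, an inbred laboratory strain, with SMART-seq2, which amplifies whole transcripts of 1 cell and uses no molecular identifiers. Both labels carry the same sort gate in these titles: positive for c-Kit, CD34 and Ly6C, high for CD16/32, and without lineage markers or Sca-1. No treatment is named for either label, and the sources used here do not give the age or sex of the mice. The same titles hold 31 preNeu cells, sorted as positive for Gr1, CD11b, c-Kit and CXCR4 without CD115 or SiglecF, and 31 tpMo cells, sorted as positive for CD115, Ly6C and CXCR4 without c-Kit. A further proneu cell, with no gate label, and 95 Ly6C+GMP cells have lower title numbers. The preNeu and tpMo cells serve only to place the levels. The cells with lower titles do so too, and enter the comparison only where all cells of both labels are named. In that setting 95 of the added cells are Ly6C+GMP and 1 is proneu, so label and title number largely go together.

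What set a proneu cell apart from a Ly6C+GMP cell within the shared gate is not given in the sources used here. If the label was drawn from the same transcriptomes, genes used to draw it differ by construction, and such genes cannot be told apart from others. No mouse is named for any cell, so each label counts as 1 sample. No p-value was computed for any gene, and every spread below is a spread over cells.

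Granulocyte-monocyte progenitors give rise to neutrophils and to monocytes. Neutrophil precursors fill their granules in a fixed order, first with the primary granule proteins such as elastase and myeloperoxidase, later with secondary granule proteins such as lactoferrin and neutrophilic granule protein. The transcription factor Irf8 favours the monocyte fate and Gfi1 the neutrophil fate, while proliferation stops only in later neutrophil precursors.

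A pair of gene groups carries most of what follows. Of the 18 late granule genes that passed a filter on low values, 6 were higher in proneu cells, beside 5.49% of all genes. Fcnb, S100a8 and S100a9, markers given for the label, were among them. Of the 28 mitosis genes, 21 were lower, beside 21.2% of all genes. The promoters of 3 called members of each group are shown. The sequences are those of RefSeq on GRCm38.p6, from 250 bases before to 50 bases after the annotated start, 5′ to 3′ on the strand of the gene. In the first 3, capitals mark TTNNGNAA on either strand, a loose form of the site of the C/EBP factors that drive granulocyte genes. Fcnb lies on the minus strand at chr2:28084829-28085128, S100a8 on the plus strand at chr3:90668821-90669120 and S100a9 on the minus strand at chr3:90695672-90695971.
Fcnb: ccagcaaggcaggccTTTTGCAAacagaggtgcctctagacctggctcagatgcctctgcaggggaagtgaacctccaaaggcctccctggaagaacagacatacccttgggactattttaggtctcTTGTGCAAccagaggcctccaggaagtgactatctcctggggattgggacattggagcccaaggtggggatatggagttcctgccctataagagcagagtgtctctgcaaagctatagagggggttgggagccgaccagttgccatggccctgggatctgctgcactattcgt
S100a8: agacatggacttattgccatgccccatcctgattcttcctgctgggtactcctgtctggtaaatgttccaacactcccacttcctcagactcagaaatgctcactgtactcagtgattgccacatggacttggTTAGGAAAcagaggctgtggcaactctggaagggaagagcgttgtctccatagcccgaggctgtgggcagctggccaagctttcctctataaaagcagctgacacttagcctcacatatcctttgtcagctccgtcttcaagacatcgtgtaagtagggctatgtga
S100a9: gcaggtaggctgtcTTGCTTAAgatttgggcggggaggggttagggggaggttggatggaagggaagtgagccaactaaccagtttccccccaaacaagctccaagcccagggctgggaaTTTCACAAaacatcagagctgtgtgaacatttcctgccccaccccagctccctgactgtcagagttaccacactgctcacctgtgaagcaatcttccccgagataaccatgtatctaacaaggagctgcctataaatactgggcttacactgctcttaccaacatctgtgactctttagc
The Fcnb window held 2 matches, the S100a8 window 1 and the S100a9 window 2. Of the 22 late granule genes, 19 had a promoter in the table, and 14 of these 19 windows (73.7%) held the motif, beside 40.7% of all 32851 windows. GAGGAA, the core bound by PU.1 and other ETS factors, was in 11 of the 19 (57.9%) and in 28.3% of all windows. The primary granule genes, by comparison, held TTNNGNAA in 3 of 14 windows (21.4%) and GAGGAA in 7 (50%).

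In the next 3 windows, capitals mark CCAAT on either strand, the site of the factor NF-Y. Ccnb1 lies on the minus strand at chr13:100786437-100786736, Cenpf on the minus strand at chr1:189688037-189688336 and Ube2c on the plus strand at chr2:164769679-164769978.
Ccnb1: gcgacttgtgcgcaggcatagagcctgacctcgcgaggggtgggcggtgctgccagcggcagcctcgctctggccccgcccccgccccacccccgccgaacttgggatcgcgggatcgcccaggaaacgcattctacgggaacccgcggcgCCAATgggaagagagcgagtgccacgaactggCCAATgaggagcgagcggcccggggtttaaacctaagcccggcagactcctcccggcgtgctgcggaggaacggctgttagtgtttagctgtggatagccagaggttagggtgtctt
Cenpf: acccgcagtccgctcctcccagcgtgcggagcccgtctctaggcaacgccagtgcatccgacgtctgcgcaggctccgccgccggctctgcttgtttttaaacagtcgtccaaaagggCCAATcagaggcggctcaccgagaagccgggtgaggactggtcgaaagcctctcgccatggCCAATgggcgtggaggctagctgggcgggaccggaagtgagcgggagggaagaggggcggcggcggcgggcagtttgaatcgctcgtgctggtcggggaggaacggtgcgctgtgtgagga
Ube2c: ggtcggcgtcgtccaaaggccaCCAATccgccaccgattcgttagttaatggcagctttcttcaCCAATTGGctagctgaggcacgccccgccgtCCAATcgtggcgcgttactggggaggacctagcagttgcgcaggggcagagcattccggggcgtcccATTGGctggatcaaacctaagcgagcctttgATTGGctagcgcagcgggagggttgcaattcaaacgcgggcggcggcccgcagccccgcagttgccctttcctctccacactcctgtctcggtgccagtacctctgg
Ccnb1 and Cenpf each held 2 matches, and Ube2c held 6, of which 1 pair overlaps because CCAATTGG reads as a match on both strands. Promoters were listed for 24 of the 28 mitosis genes, in 25 windows. CCAAT was in 22 of the 25 (88%), beside 37.4% of all windows, and TTTGAA, the core of the cell cycle homology region, in 18 (72%), beside 17.9%. Motif and call did not always go together. The window of Nusap1, the mitosis gene with the lowest difference, held neither CCAAT nor TTTGAA. The window of Kif23, the 1 higher mitosis gene, held both, and that of Pglyrp1, a higher late granule gene, held no TTNNGNAA. A match describes the letters in the window, not a bound site.

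The cells differed in how many genes were seen. At a detection limit of 1 TPM (a level relative to the cell's total and to transcript length), the proneu cells had 2634 to 4894 detected genes with a median of 4254, and the Ly6C+GMP cells 3994 to 5333 with a median of 4918. The share of transcripts in the 20 most abundant genes was alike, with medians of 22.5% and 22.2%, and the mitochondrially encoded share had medians of 6.02% and 5.54%. Title numbers were also unevenly filled: 9 of the 10 Ly6C+GMP cells, but only 5 of the proneu cells, had titles up to RMB4624. Some common transcripts were listed at 0 although related ones never were, mt-Co3 in 29 of the 31 cells and mt-Co2 in 12, so a 0 is given below as listed at 0 and not as absence.

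The marker genes given for proneu cells separated the labels in part. S100a8, a calcium-binding protein of neutrophils and monocytes, ranged in proneu cells from 124 to 15124 TPM with a median of 2324, and in Ly6C+GMP cells from 14.3 to 10877 TPM with a median of 727. On the log2(TPM + 1) scale the means were 11.13 ± 1.63 (SD, n = 21 cells) and 8.92 ± 2.76 (SD, n = 10 cells), a difference of 2.21 that stayed between 1.66 and 2.71 whichever 1 cell was left out. The labels overlapped, with the proneu cell higher in 162 of the 210 pairs of 1 cell of each label.

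Its partner S100a9 was listed at 0 to 4402 TPM in proneu cells with a median of 85.9, and at 0 to 3274 TPM in Ly6C+GMP cells with a median of 13.1. It was detected in 18 of 21 and 6 of 10 cells, and the difference was 2.69 (2.29 to 3.59 with any 1 cell left out). Fcnb, which encodes ficolin B, a lectin stored in granules, spanned 2.23 to 4131 TPM in proneu cells, median 865, and 3.49 to 8404 TPM in Ly6C+GMP cells, median 148. Its log2 means were 8.65 ± 3.06 (SD, n = 21 cells) and 6.69 ± 3.35 (SD, n = 10 cells), a difference of 1.97 (1.47 to 2.67).

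For all 3 genes 1 Ly6C+GMP cell stood above the rest of its label: it had the highest Fcnb, S100a8 and S100a9, and also the highest Camp (1884 TPM), Wfdc21 and Elane of the 10. The next highest Ly6C+GMP cell had 441 TPM of Fcnb, 2101 TPM of S100a8 and 49.8 TPM of S100a9. Irf8, listed at 0 in 12 of the proneu cells, reached only 7.64 TPM in them and was detected in 6 of 21. In Ly6C+GMP cells it was detected in 2 of 10, at up to 373 TPM, and the difference of -0.90 shrank to -0.12 without the highest of these. Gfi1 did not separate the labels, with medians of 1.72 and 11.2 TPM, detection in 11 of 21 and 6 of 10 cells and a difference of 0.09 (-0.27 to 0.52). Thus S100a8, S100a9 and Fcnb were higher in mean log2 level under the proneu label, Irf8 was low in most cells of both, and Gfi1 was found under both. By the log2 ratio of mean TPM, to which the 1 high Ly6C+GMP cell adds most, the differences of Fcnb and S100a9 were 0.37 and 0.63, below 1 log2 unit.

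**Figure D1:**
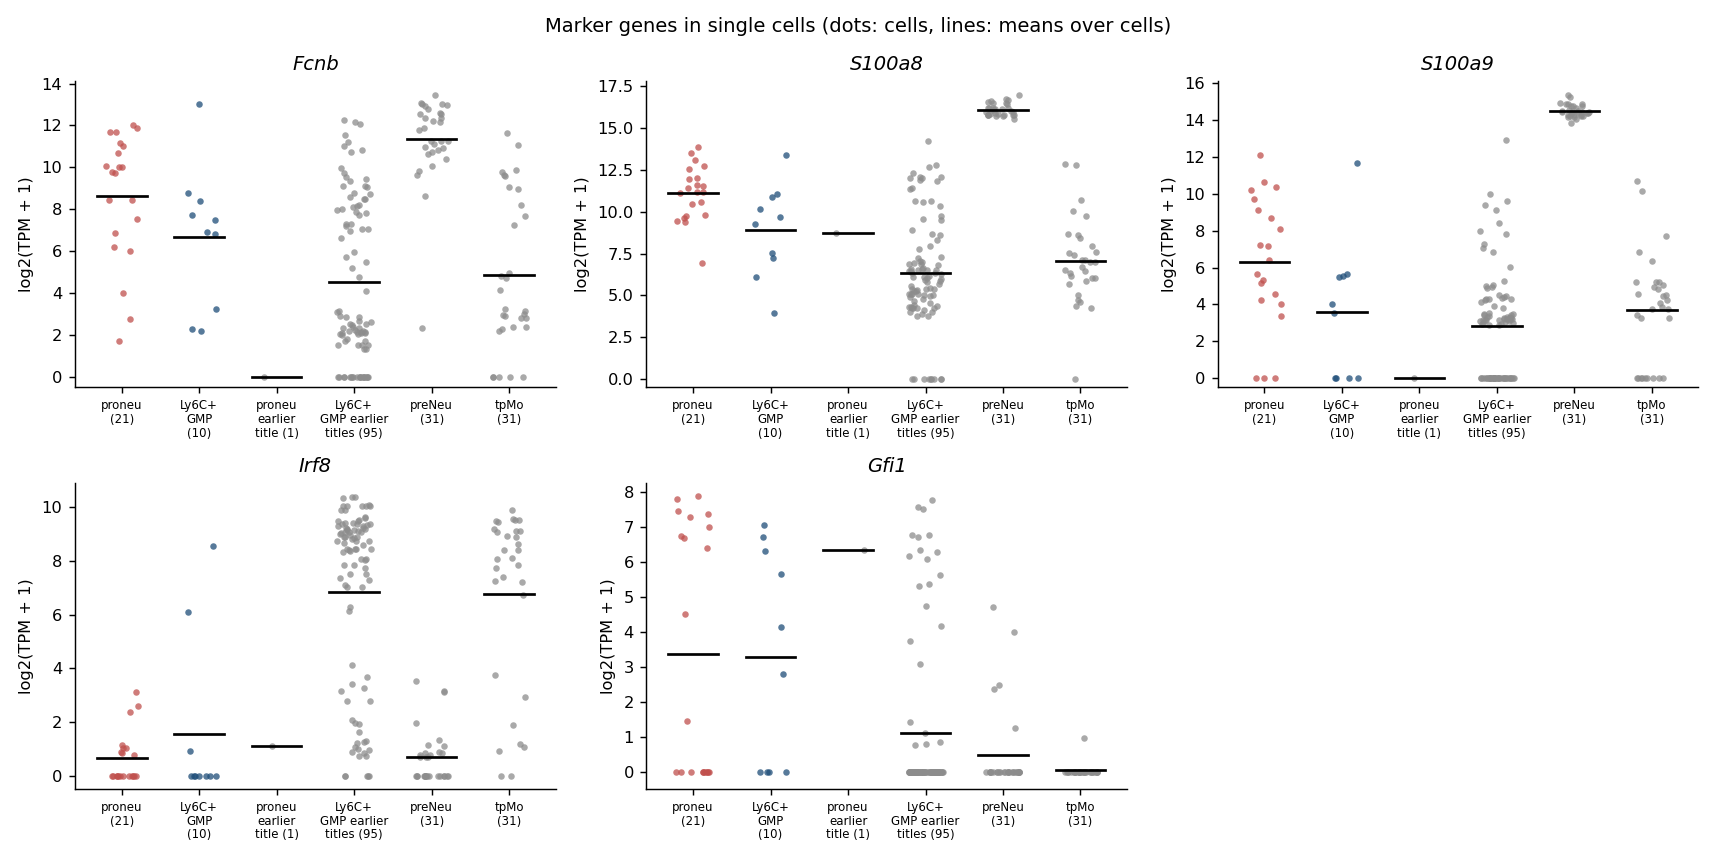
Each dot is 1 cell and each line the mean over cells of log2(TPM + 1), for the 5 marker genes; red and blue are the 21 proneu and 10 Ly6C+GMP cells compared, grey the other sets. S100a8 in proneu cells, with a median of 2324 TPM, lies between the Ly6C+GMP cells and the preNeu cells, which start at 47404 TPM.

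Across all genes, the lower side dominated by count. Of 11031 genes with a mean of at least 1 TPM under either label, 606 (5.49%) were higher in proneu cells by at least 1 log2 unit and 2336 (21.2%) were lower. Requiring the difference to hold whichever 1 cell was left out kept 327 higher (2.96%) and 1380 lower (12.5%). The median difference of all genes was -0.27, and among the 1736 genes with a mean of at least 100 TPM over the 31 cells it was -0.47, with 96 higher and 512 lower.

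That balance rested on how the cells were averaged. The log2 ratio of mean TPM, which gives cells with high values more weight, put 2724 genes higher and 1966 lower. Among the 10 proneu and 6 Ly6C+GMP cells with 4300 to 5100 detected genes, 1590 genes were higher and 2330 lower, and among the cells with titles up to RMB4624, 1940 were higher and 2378 lower. In both sets of cells the count of lower genes was close to that of all 31 cells, and the count of higher genes was larger. Each set holds fewer cells, whose part in these counts was not tested. List counts below are read against the shares of all genes.

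**Figure D2:**
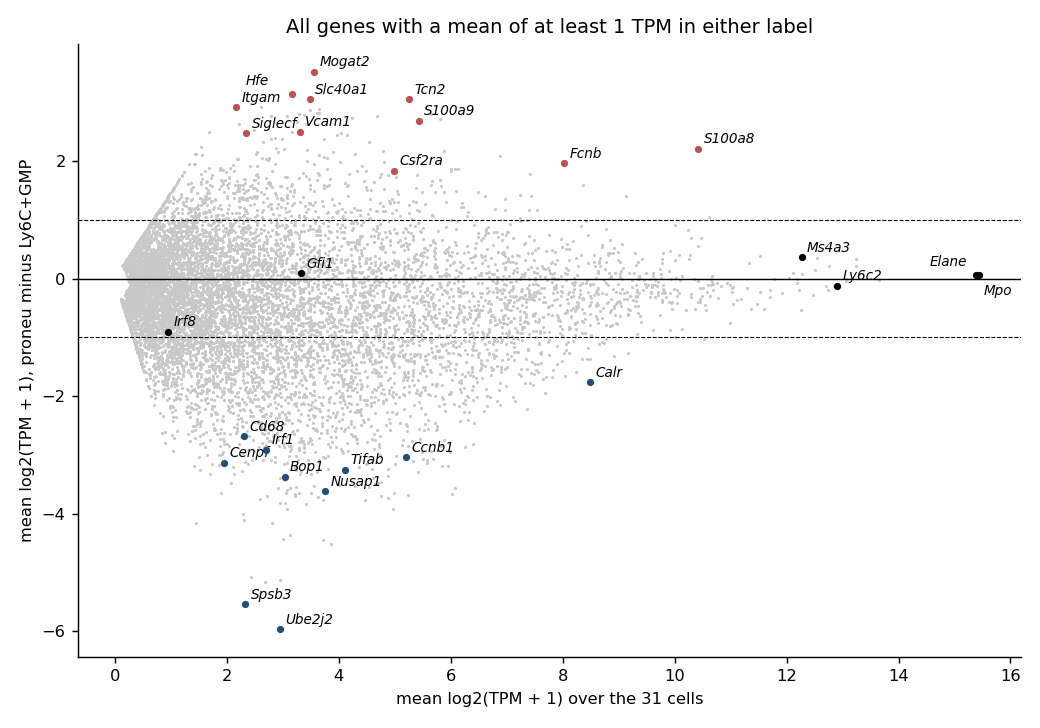
Each dot is 1 of the 11031 genes, with its mean log2(TPM + 1) over the 31 cells on the x axis and the difference proneu minus Ly6C+GMP on the y axis; dashed lines mark 1 log2 unit. Elane and Mpo lie at the top of the level scale with differences of 0.07 and 0.06, S100a8 at 2.21 and Ube2j2 at -5.96.

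In proneu cells part of the late granule genes was higher, while primary granule genes were level. Of 22 late granule genes, 18 passed the filter on low values. Of these, 6 were higher, beside 5.49% of all genes: S100a9, S100a8, Fcnb, Wfdc21, Pglyrp1 and Ngp. None was lower, beside 21.2% of all genes. The median over the 18 was 0.55 (1.64 among titles up to RMB4624 and 0.34 with all cells of both labels in the series), and 4 of the 6 held with any 1 cell left out. This list contains the markers Fcnb, S100a8 and S100a9 given for the label, so its count is no independent evidence of their direction. Although listed with the granule genes, S100a8 and S100a9 encode calcium-binding proteins and not granule proteins.

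Wfdc21, a secreted whey acidic protein family member, was listed at 0 to 314 TPM in proneu cells with a median of 32.7 and at 0 to 93.3 TPM in Ly6C+GMP cells with a median of 0. It was detected in 14 of 21 and 4 of 10 cells, a difference of 1.75 (1.5 to 2.23). Pglyrp1, a bactericidal peptidoglycan recognition protein of granules, had nearly equal medians, 206 and 218 TPM. Its difference of 1.41 came from the cells without it, since 2 of 21 proneu and 3 of 10 Ly6C+GMP cells were listed at 0, and it was 0.78 without 1 cell.

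The proteins of the mature secondary granule were at low levels under both labels. Ngp ranged from 4.24 to 945 TPM in proneu cells, median 93.8, and from 8.84 to 148 TPM in Ly6C+GMP cells, median 23.7, a difference of 1.09 (0.90 to 1.34). The tpMo cells of the same titles, selected by the monocyte receptor CD115, had a median of 89.6 TPM of Ngp, and preNeu cells 66794 to 207913 TPM. Ltf, which encodes lactoferrin, had medians of 4.49 and 2.49 TPM, and Lcn2, an iron-siderophore binding protein, 6.06 and 0 TPM, both within 1 log2 unit. Camp, the cathelicidin precursor, had medians of 28.1 and 22 TPM and a difference of 0.53. No proneu cell reached the lowest preNeu cell in S100a8, S100a9, Ngp, Camp, Ltf or Lyz2.

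Among the primary granule genes, 13 of 14 passed the filter, none was higher, 2 were lower and the median was -0.00. Over all genes 5.49% were higher and 21.2% lower. Elane, neutrophil elastase, had 29839.7 to 57868 TPM in proneu cells, median 44299, and 26932 to 52486 TPM in Ly6C+GMP cells, median 45491. Mpo, myeloperoxidase, had medians of 48402 and 44535 TPM, with 1 proneu cell at 5647 TPM below all others. For these abundant primary granule genes the ranges of the labels overlapped almost fully, apart from that cell.

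Ms4a3, a membrane protein of granulocyte-monocyte progenitors, was higher in proneu cells by 0.37 (0.32 to 0.42), with 3438 to 8329 TPM against 2981 to 5701 TPM, and in 177 of the 210 pairs. That difference is below 1 log2 unit yet moved little with any 1 cell, since the SDs over cells were 0.26 and 0.29. The 2 lower members were Igfbp4, an insulin-like growth factor binding protein, at -1.59 (-2.30 to -1.30), and Ctsc, the protease that activates the granule serine proteases, at -1.15 (-1.46 to -0.61). Ctsc had medians of 0.87 and 0.785 TPM, so its difference came from a minority of cells.

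**Figure D3:**
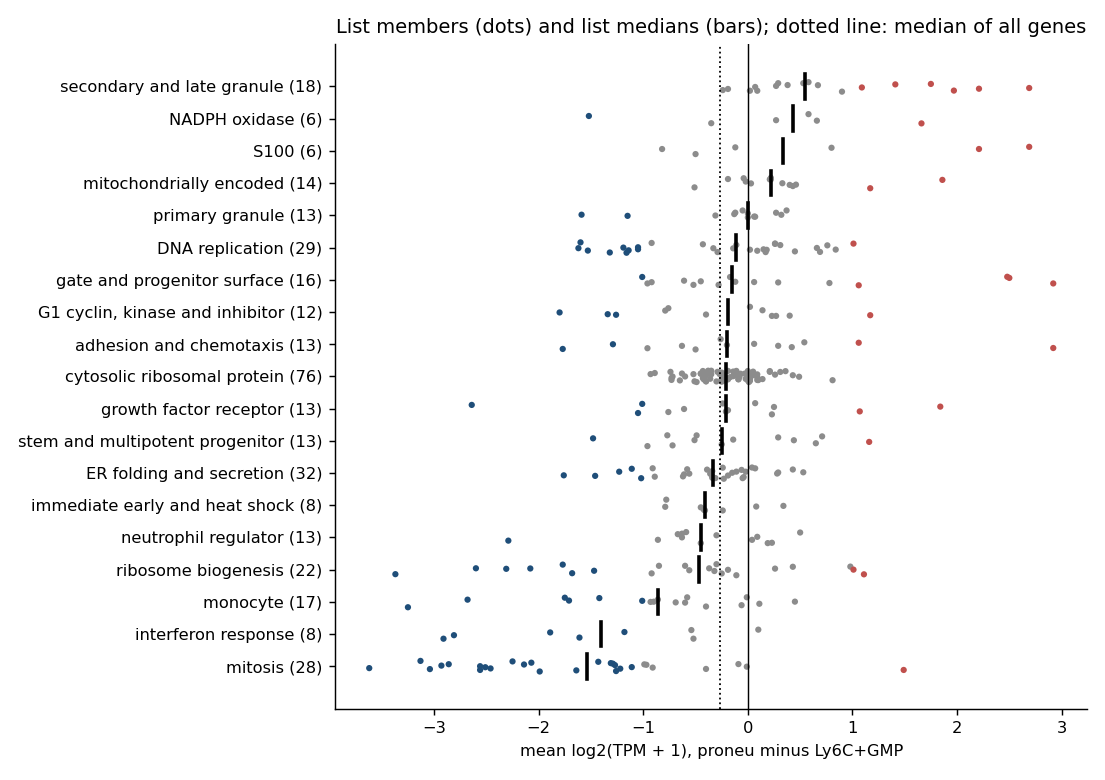
Each dot is a list member that passed the filter, by its difference proneu minus Ly6C+GMP in log2 units, with the number of members in brackets; black bars are list medians and the dotted line the median of all genes, -0.27. The late granule list has a median of 0.55 and the mitosis list the lowest, -1.54.

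Itgam, Siglecf and Vcam1, surface genes not named in the gate, whose lineage markers are not listed here, were found more often in proneu cells. Others of the 16 surface genes listed were not, as Csf1r, the receptor CD115, was found in 1 of 21 and 2 of 10 cells at a difference of -1.01, and the median of the list was -0.15. Itgam (chr7:128062640-128118491, plus strand, GRCm38), which encodes the CD11b chain of a neutrophil and monocyte integrin, was listed at 0 to 196 TPM in proneu cells with a median of 10.8 and at most at 0.59 TPM in Ly6C+GMP cells. It was detected in 11 of 21 proneu cells (52.4%, exact Clopper-Pearson 95% interval 29.8 to 74.3%, counting error only) and in 0 of 10 Ly6C+GMP cells, which allows a share of up to 30.8%. The difference was 2.92 (2.69 to 3.07), and all Ly6C+GMP cells lay below the 11 proneu cells with Itgam.

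Siglecf, a sialic acid receptor best known from eosinophils, was detected in 11 of 21 proneu cells, reaching 315 TPM, and in 1 of the 10 others, with 99.2 TPM, a difference of 2.48 (2.22 to 3.14). Vcam1, an adhesion molecule that in marrow is best known from macrophages and stroma, was listed at 0 to 880.1 TPM in proneu cells, median 59.8, and was detected in 13 of them and in 2 of 10 Ly6C+GMP cells. Its difference was 2.50 (2.22 to 3.33) and 0.91 among the cells with titles up to RMB4624. None of the 3 genes was limited to proneu cells. In the 95 Ly6C+GMP cells with lower titles, Siglecf and Vcam1 were each detected in 22 and Itgam in 12. Among the 31 preNeu cells, Itgam was detected in 28, Siglecf in 4 and Vcam1 in 3. Itgam and Vcam1 were found together in 8 proneu cells, Itgam alone in 3 and Vcam1 alone in 5, so they did not mark 1 set of cells. Other eosinophil and macrophage genes did not accompany them: Epx, Prg3 and the other 5 eosinophil genes besides Siglecf and Prg2 were detected in no cell of the 31, nor were C1qa, C1qb and C1qc.

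Genes of the proteins used in the gate were within 1 log2 unit. Ly6c2, the main Ly6C gene, had medians of 7549 and 8416 TPM, and Fcgr3, an Fc receptor of the CD16/32 pair, 1189.8 and 1201 TPM. Kit had medians of 60.2 and 41.8 TPM with a difference of -0.61, and Cd34 2.26 and 0.865 TPM with a difference of 0.29. In the 95 Ly6C+GMP cells with lower titles, Cd34 was detected in 87, at a median of 153 TPM. With all cells of both labels its difference was -3.02. Ly6c1 differed by -0.92 and Ly6a, the Sca-1 gene, by -0.96, and since reads of the near-identical Ly6 genes are shared out by estimate, these values are less certain.

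The largest differences upward were in Mogat2, Hfe, Slc40a1 and Tcn2, none of them a granule gene. Mogat2, an enzyme that makes diacylglycerol from monoacylglycerol, was detected in 14 of 21 proneu cells at up to 1176 TPM, median 110.3, and in 2 of the 10 others, which reached 205 TPM, a difference of 3.52 (3.24 to 4.24). Slc40a1, ferroportin, the exporter of iron from cells, was listed at 0 to 882 TPM in proneu cells, median 106, and at 0 to 100.3 TPM in Ly6C+GMP cells, median 0, a difference of 3.05 (2.78 to 3.63). Hfe, a regulator of iron uptake and of the iron hormone hepcidin, was detected in 13 of 21 and 3 of 10 cells, with medians of 80 and 0.37 TPM and a difference of 3.14 (2.93 to 3.76). Most Ly6C+GMP cells had neither iron gene at 1 TPM, and the labels overlapped in the cells near 0 and in the few Ly6C+GMP cells with a level.

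Slc40a1 and Hfe were found together in 7 proneu cells, Slc40a1 alone in 5, Hfe alone in 6 and neither in 3, with a correlation across the 21 cells of -0.07, a description in which all cells share 1 sample. Tcn2, the vitamin B12 carrier transcobalamin, had medians of 173 and 1.19 TPM and a difference of 3.05 (2.69 to 3.66). Rhot1, which tethers mitochondria to motors, differed by 2.93, the kinase Mknk2, which phosphorylates the translation factor eIF4E, by 2.89 and the G protein subunit Gnaq by 2.87. Mknk2 was the most widespread of the 3, in 18 of 21 proneu cells at a median of 19.4 TPM, against a median of 2.84 TPM in Ly6C+GMP cells. In the 95 Ly6C+GMP cells with lower titles several of these genes were common: Gnaq and Tcn2 were each found in 74 of 95, Mknk2 in 75 and Rhot1 in 48, whereas Mogat2 was found in 23 and Slc40a1 in 18. With all cells of both labels in the series, Rhot1 differed by 0.93 and Gnaq by 0.70, both below 1 log2 unit. There, label and title number largely go together, so their parts cannot be told apart. Mogat2 and Slc40a1 were also found in the preNeu cells, in 17 and 16 of 31, whereas Hfe, in 5 of 31 at up to 8.41 TPM, was not at these levels there.

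**Figure D4:**
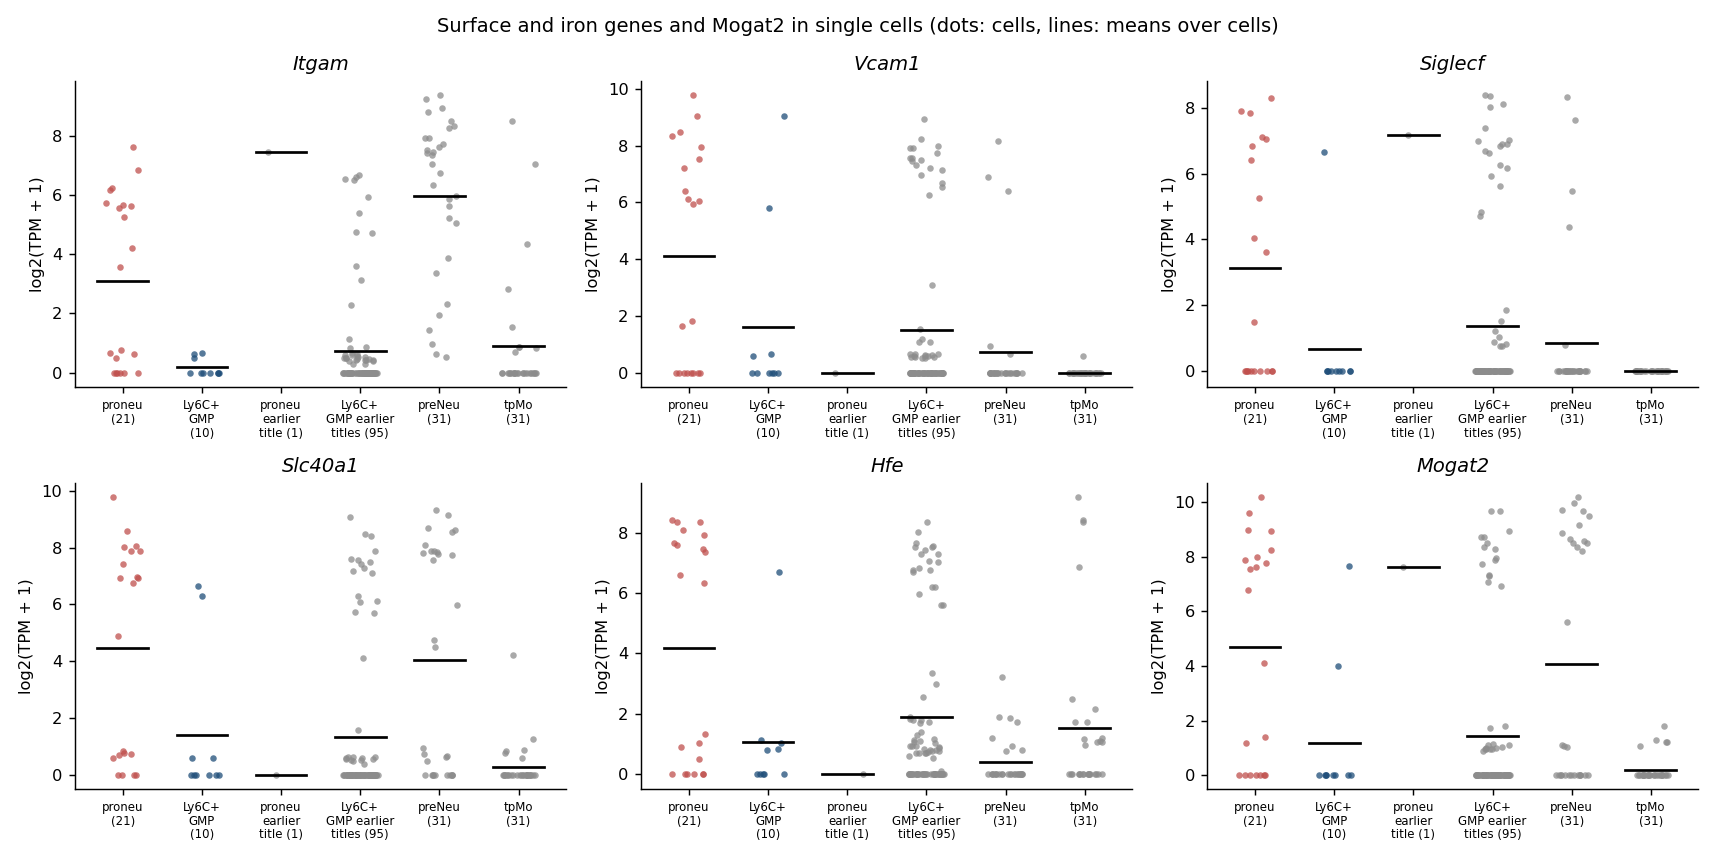
Each dot is 1 cell and each line the mean over cells of log2(TPM + 1) for Itgam, Vcam1, Siglecf, Slc40a1, Hfe and Mogat2, with colours and sets as in the plot of the marker genes. In proneu cells each gene splits into cells near 0 and cells with a clear level, 11 to 14 of 21 at 1 TPM or more.

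The genes with the largest differences downward that are described here were found in 8 to 10 of the 10 Ly6C+GMP cells. Ube2j2 (chr4:155943831-155959604, plus strand, GRCm38), a ubiquitin-conjugating enzyme of the endoplasmic reticulum, had 58.6 to 340.5 TPM in Ly6C+GMP cells, median 116, and was listed at 0 in 16 of the 21 proneu cells, which reached 201 TPM. The difference was -5.96 (-6.29 to -5.80), and the Ly6C+GMP cell was higher in 195 of the 210 pairs. Spsb3, a substrate receptor of a ubiquitin ligase, was detected in 8 of 10 and 2 of 21 cells, a difference of -5.54. Fbxo22, an F-box protein of another ubiquitin ligase, was detected in 9 of 10 and 2 of 21 cells, a difference of -5.07. Ripk3, a kinase of necroptosis, was detected in all 10 Ly6C+GMP cells, median 167 TPM, and in 8 of 21 proneu cells, a difference of -4.45, and Polr2b, a core subunit of RNA polymerase II, differed by -4.36.

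Ube2j2 and Spsb3 were less common in the 95 Ly6C+GMP cells with lower titles, detected in 53 and 40 of them. With all cells of both labels in the series their differences were -2.37 and -1.79. Fbxo22, Ripk3 and Polr2b also stayed lower by at least 1 log2 unit with all cells. Reads of overlapping genes cannot be told apart in a kit that does not mark strand. This touches Spsb3, Fbxo22 and Polr2b, which overlap Eme2, Nrg4 and Igfbp7 in the annotation. Among other genes in the text it touches Itgam (Gm49368), Nusap1 (Oip5), Ube2c (Tnnc2), Cdc45 (Ufd1), Gins2 (Gse1 and Gm20388), Tk1 (Afmid and Gm20708), Fen1 (Tmem258), Ccnd3 (Bysl), Bop1 (Mroh1 and Scx), Cebpd (Spidr), Csf1r (Hmgxb3), Irf1 (Gm17334), Ifi47 (Olfr56), and Irf8 and Cyba (both Gm20388).

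Mitosis genes were lower in proneu cells. All 28 members passed the filter; 21 were lower, 1 was higher and the median difference was -1.54, against 21.2% lower and a median of -0.27 over all genes. With any 1 cell left out, 16 stayed lower. Nusap1, a spindle-associated protein, had 8.15 to 366 TPM in Ly6C+GMP cells, median 107, and was listed at 0 to 329 TPM in proneu cells, median 0.75, a difference of -3.62 (-3.95 to -3.36). Ccnb1, cyclin B1, which takes cells into mitosis, had medians of 498 TPM in Ly6C+GMP and 3.01 TPM in proneu cells, with 1 proneu cell at 1599.9 TPM, and a difference of -3.04 (-3.84 to -2.74). Every Ly6C+GMP cell had Nusap1, whereas 8 of 21 proneu cells did, so the labels overlapped through a subset of proneu cells.

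Cenpf, a kinetochore protein, was detected in 8 of 10 and 4 of 21 cells, a difference of -3.13, and Ube2c, which hands ubiquitin to mitotic cyclins, in 7 of 10 and 10 of 21, a difference of -2.93. The proliferation marker Mki67 had medians of 52.8 TPM in Ly6C+GMP and 33.3 TPM in proneu cells and a difference of -1.11 (-1.62 to -0.80). Kif23, a motor of cell division, was the exception at 1.49, found in 10 of 21 and 2 of 10 cells. As a mean over the list per cell, the mitosis level was 1.34 to 7.16 log2 units in proneu cells, median 3.64, and 2.93 to 6.78 in Ly6C+GMP cells, median 6.14, so the highest cell of all was a proneu cell.

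The mitosis level moved with the number of detected genes, with correlations of 0.41 over 21 proneu and 0.83 over 10 Ly6C+GMP cells, in which all cells share 1 sample and depth is unknown. With cells of 4300 to 5100 detected genes the median of the list was -1.42, with titles up to RMB4624 it was -1.78, and as a log2 ratio of mean TPM it was -0.36. With all cells of both labels it was -1.10. The mitosis level had a median of 6.14 log2 units in these 10 Ly6C+GMP cells and 4.98 in the 95 with lower titles. It was 5.3 in preNeu, 4.85 in tpMo and 3.64 in proneu cells.

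**Figure D5:**
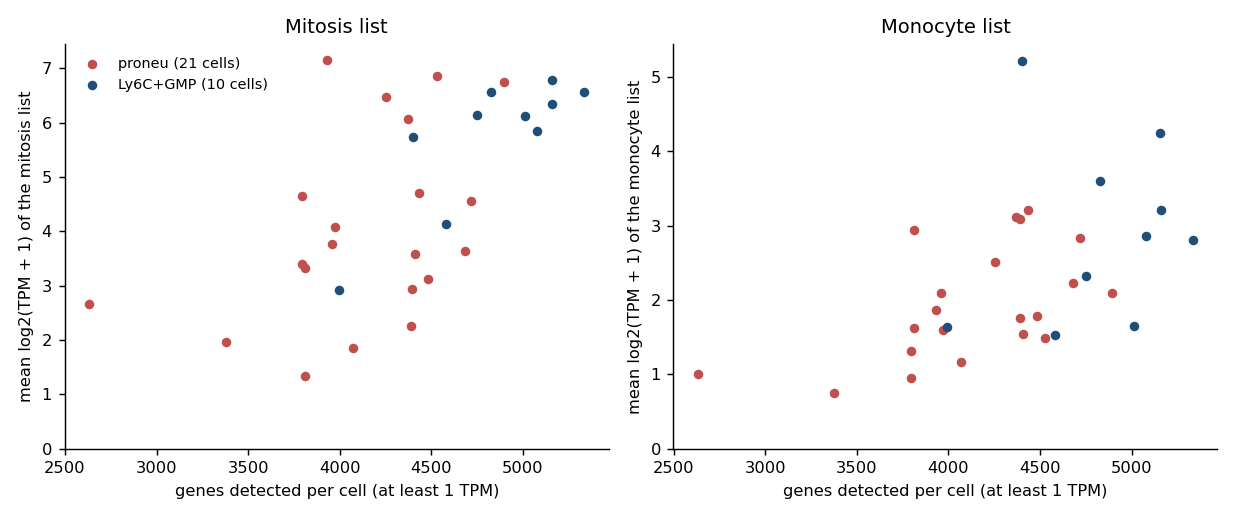
Each dot is 1 cell, with its number of detected genes on the x axis and the mean log2(TPM + 1) of the mitosis list (left) or the monocyte list (right) on the y axis. The Ly6C+GMP cells lie toward more detected genes, median 4918 against 4254, and mostly toward a higher mitosis level.

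The median of the DNA replication genes did not follow that of the mitosis genes. All 29 passed the filter, 9 were lower and 1 higher, and the median was -0.11. Over all genes 21.2% were lower, a smaller share, and 5.49% higher, with a median of -0.27. Cdc45, a helicase component, had medians of 186 and 137 TPM although its mean log2 difference was -1.62, because 5 proneu cells were listed at 0. Gins2, another helicase component, differed by -1.60, and Tk1, thymidine kinase, by -1.53, with medians of 235 and 319 TPM. Fen1, a flap endonuclease, differed by -1.32, with medians of 267 and 271 TPM. Mcm4, of the replicative helicase, was the 1 higher member at 1.01. As a mean over the list per cell, the replication level had a median of 5.16 log2 units in proneu and 5.78 in Ly6C+GMP cells.

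Among G1 regulators, Ccnd3, cyclin D3, was higher by 1.17 (0.66 to 1.56), with medians of 352 and 179.5 TPM and the proneu cell higher in 163 of 210 pairs. Btg1, an antiproliferative gene, differed by -1.80 (-2.13 to -1.56), with medians of 0 and 20.1 TPM, and Cdkn2d, an inhibitor of the G1 kinases, by -1.34 (-1.77 to -0.82).

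Of 22 ribosome biogenesis genes, 7 were lower, all 7 with any 1 cell left out, and 2 were higher, with a median of -0.47, beside 21.2% lower and a median of -0.27 over all genes. Bop1, which processes ribosomal RNA, had medians of 0 and 92.3 TPM and a difference of -3.37 (-3.96 to -3.09), and Rrs1, a ribosome assembly factor, differed by -2.60. Of 32 genes of the endoplasmic reticulum, 5 were lower and none higher, a share of lower genes below that of all genes, and the median of -0.33 was near that of all genes. Calr, the chaperone calreticulin, had 373 to 1489 TPM in Ly6C+GMP cells, median 841, and 0 to 1374 TPM in proneu cells, median 517, a difference of -1.76 (-1.89 to -1.36). Herpud1, which serves the removal of misfolded proteins, differed by -1.46 with near-equal medians of 499 and 491 TPM.

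Regulators of the neutrophil fate were largely level. Of 13, none was higher and 1 was lower, beside 5.49% and 21.2% of all genes. The lower member was Cebpd, a C/EBP factor, with medians of 0 and 68.2 TPM and a difference of -2.29 (-2.78 to -1.84). Cebpe, which drives secondary granule genes, had medians of 50.1 and 61.9 TPM and a difference of -0.30. Spi1, the PU.1 gene of both fates, differed by 0.04 and Csf3r, the G-CSF receptor, by 0.23. Myb, a progenitor factor, was within 1 log2 unit at -0.67, with medians of 139 and 157 TPM.

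Of the 13 growth factor receptors that passed the filter, 2 were higher and 3 lower, beside 5.49% higher and 21.2% lower over all genes. Csf2ra, the GM-CSF receptor alpha chain, was listed at 0 to 449 TPM in proneu cells, median 75.6, and at 0 to 137 TPM in Ly6C+GMP cells, median 17.8, a difference of 1.84 (1.42 to 2.21). Il6ra, the interleukin-6 receptor, was detected in 5 of 21 and 6 of 10 cells, with medians of 0 and 22.3 TPM and a difference of -2.64 (-3.07 to -2.18). Il3ra, the interleukin-3 receptor alpha chain, was found in 4 of 21 and 0 of 10 cells, a difference of 1.07 (0.76 to 1.12).

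In the NADPH oxidase, which makes the oxidants of neutrophils, the subunit Ncf4 differed by -1.52 (-1.70 to -1.21) although its medians were 207 and 243 TPM, as 4 proneu cells and no Ly6C+GMP cell were listed at 0. Cyba, with medians of 520.4 and 281 TPM, differed by 0.58.

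A minority of the monocyte genes was lower in proneu cells. Of 27, 17 passed the filter and 6 were lower, beside 21.2% of all genes, 4 of them with any 1 cell left out. The other 11 were within 1 log2 unit, and the median was -0.86. Tifab, a regulator of immune signalling, had 47.9 to 152 TPM in all 10 Ly6C+GMP cells and was detected in 11 of 21 proneu cells, a difference of -3.25 (-3.46 to -3.10). Cd68, a lysosomal glycoprotein of phagocytes, was detected in 7 of 10 and 4 of 21 cells, a difference of -2.68, and Ccr2, the receptor that guides monocytes out of marrow, in 5 of 10 and 4 of 21, where it reached 2.49 TPM, a difference of -1.71. Klf4, Cx3cr1, Ms4a6d, Nr4a1, S100a4 and Ahnak were detected in no cell of either label.

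Summed over all 27 members, the monocyte genes had 191 to 1344 TPM per cell in proneu cells, median 541, and 234 to 2657 TPM in Ly6C+GMP cells, median 878. The list's difference was -0.47 among cells with 4300 to 5100 detected genes and -0.03 among cells with titles up to RMB4624, where Cd68 turned to 0.79. The medians of all genes in these sets of cells were -0.09 and -0.23. The Ly6C+GMP cells of these titles were themselves low in monocyte genes: Irf8 was detected in 2 of 10 of them and in 85 of the 95 with lower titles, where its median was 349 TPM. Per cell, the monocyte list had a median of 2.83 log2 units in these 10, 4.93 in the 95 and 7.30 in tpMo cells, against 1.79 in proneu cells.

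Of 18 interferon response genes, 8 passed the filter, 5 of these were lower and none higher, with a median of -1.40, beside 21.2% lower over all genes. Irf1, a transcription factor induced by interferon, was found in 6 of 21 and 8 of 10 cells, with a difference of -2.91 (-3.43 to -2.53), and Irgm1, an interferon-induced GTPase, in 6 of 21 and 6 of 10, with -2.81 (-3.23 to -2.28). Ifi47, another such GTPase, was found in 12 of 21 and 8 of 10 cells and differed by -1.89, but by 0.57 among titles up to RMB4624.

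Most genes of other blood lineages were not detected under either label. In the erythroid and megakaryocyte list 16 of 19 genes were listed at 0 in all 31 cells, and in the lymphoid list 16 of 20. Ighm, the immunoglobulin heavy chain mu gene, was nevertheless found in 16 of 21 proneu cells, with up to 1555 TPM, and in 8 of 10 Ly6C+GMP cells, a difference of -0.46. Cd79b, a chain of the B cell receptor complex, was found in 9 of 21 cells, with up to 914 TPM, and in 2 of 10, a difference of 1.37 (1.03 to 2.11) that was -0.59 among titles up to RMB4624. Mcpt8, a basophil protease, was detected in 5 of 21 proneu cells, at up to 1792 TPM, and in 0 of 10 Ly6C+GMP cells, a difference of 1.53 (1.07 to 1.61). The other defining basophil and mast cell genes Cpa3, Gata2, Fcer1a and Prss34 were detected in none of the 31 cells. Hdc, which makes histamine, was in all 31 cells, with medians of 373 and 465 TPM.

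Proneu cells varied widely among themselves. S100a8 and S100a9 moved together across the 21 cells with a correlation of 0.79, and S100a8 and Fcnb with 0.65; the cells share 1 sample and their depth is unknown. S100a8 had correlations of -0.07 with Itgam, 0.18 with the mitosis level and -0.24 with the number of detected genes. Elane, on its far higher level, had 0.52 with S100a8. S100a8 and Itgam thus ordered the 21 cells differently.

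The further proneu cell, which has a lower title number and no gate label, had part of the granule genes. Fcnb, S100a9, Ngp, Camp and Wfdc21 were listed at 0 in it, while S100a8 at 425 TPM, Pglyrp1 at 1029 TPM and Lyz2 at 495 TPM lay within the range of the 21. It had Itgam at 176 TPM, Siglecf at 144 TPM and Gfi1 at 80.7 TPM, Elane at 35896 TPM and a mitosis level of 1.95 log2 units, within the range of the 21, while Hfe, Slc40a1 and Vcam1 were listed at 0.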

How the data were processed

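Single cells were profiled by SMART-seq2, with cells lysed in picopure buffer, Nextera XT libraries of reduced volume and paired-end HiSeq reads, per the labels' protocols. The authors deposited 1 table of TPM values for 43280 gene symbols and 281 cells, and every column matched a sample title. RSEM 1.2.19 and the build GRCm38 are named, per the submitters' processing notes. The sources used here give no aligner, annotation or filter. TPM keeps no depth, so read depth is unknown.

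The effect was the difference of mean log2(TPM + 1) over cells, proneu minus Ly6C+GMP, which understates low genes, for genes with a mean of at least 1 TPM under either label. Higher and lower mean a difference of at least 1 log2 unit. No cell was removed and doublets were not called. The comparison, gene lists and tests were chosen with earlier results of these data known. Named genes were the 12 with the largest difference each way (mean of at least 50 TPM under the higher label, detection in 50% or more of that label's cells, holding with any 1 cell left out, no predicted, pseudo- or ribosomal protein genes), the 4 largest of each list (at least 5 TPM), the 5 markers and the gate genes; from these, and from other list members such as Elane, Ngp, Cebpe, Mki67, Mcm4, Kif23 and Hdc, those described were picked after their values were seen. A few genes are not reported here. Alternatives were other pseudocounts, filters, effects, scalings and sets of cells. Python 3.11.15, pandas 2.3.3, numpy 2.4.6 and scipy 1.17.1 were used, and the scripts were tested on simulated data.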

Additional observations from a re-analysis of the deposited data

Results flagged for a closer look

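Of 13 per-cell measures checked in the 10 Ly6C+GMP cells, 1 had a cell far from the others. The highest S100a9 value, 11.7 on the log2(TPM + 1) scale (3274 TPM), was separated from the next, 5.67, by more than the Dixon limit for 10 values. It belongs to the Ly6C+GMP cell that was also highest in Fcnb and S100a8. Chance alone gives such a gap in about 1 in 20 groups for a single measure, and here 13 measures were examined at both ends.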

How the results depend on the processing

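The medians of the late granule and mitosis lists kept their direction in every alternative run. The monocyte median stayed below 0 but was only -0.03 among titles up to RMB4624, where the median of all genes was -0.23. The primary granule median lies at 0 and reached 0.69 with all cells of both labels in the series. In that last setting label and title number largely go together. Counts moved more. Higher genes numbered 120 with a pseudocount of 10 TPM, 1180 with 0.1 TPM, 2724 by the log2 ratio of mean TPM, 1063 without cells below the lower quartile of detected genes (13 proneu left), 264 with all cells of both labels, and, in sets chosen after seeing the data, 1590 among cells with 4300 to 5100 detected genes and 1940 among titles up to RMB4624. Lower genes numbered 706 and 3685 with pseudocounts of 10 and 0.1 TPM. Other settings, left-out single cells among them, kept both counts within 1.5 times.

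Of 64 genes examined singly that differed by at least 1 log2 unit, 40 kept this by the log2 ratio of mean TPM, 42 with a pseudocount of 10 TPM, 45 by medians, 51 without the lower quartile of detected genes, 50 with all cells, 53 among cells with 4300 to 5100 detected genes and 50 among titles up to RMB4624. By the ratio of means, those below 1 log2 unit included Fcnb (0.37), S100a9 (0.63), Tifab (-0.99) and Calr (-0.75). Some genes changed sign. With all cells, Cd79b was -0.55, Il3ra -0.73 and Cdc45 0.04. By medians, Pglyrp1 was -0.07, Ctsc 0.07, Cdc45 0.44 and Herpud1 0.02. By the ratio of means, Ncf4 was 0.17, Fen1 0.01 and Herpud1 0.04. Cd68 was 0.44 among cells with 4300 to 5100 detected genes and Cd79b -0.21 without the lower quartile, and among titles up to RMB4624 Cd68 was 0.79, Cd79b -0.59 and Ifi47 0.57. The cause was not tested. No paired analysis was possible because each label is 1 sample and no number pairs the cells. Depth is unknown, so a gene listed at 0 may have been missed.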

Other observations

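The 76 cytosolic ribosomal protein genes were all within 1 log2 unit, with a median of -0.21. Among 14 mitochondrially encoded genes that passed the filter, mt-Nd6, a subunit of respiratory complex I, had 53.8 to 833 TPM in proneu cells and 7.45 to 419 TPM in Ly6C+GMP cells, a difference of 1.17, and mt-Co2 differed by 1.86 although it was listed at 0 in 12 of the 31 cells. Of the 13 adhesion and chemotaxis genes that passed the filter, 2 were higher and 2 lower, beside 5.49% and 21.2% of all genes. The lower members were Itgal, an integrin of leukocyte adhesion, at -1.77, and Selplg, the P-selectin ligand, at -1.29. The stem and multipotent progenitor list had a median of -0.25, with Hlf, a stem cell factor, at 1.16 and Ifitm3, an antiviral membrane protein, at -1.48.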
